A study of Mus musculus with 16 samples.

Results

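Collagens are the main structural proteins of the extracellular matrix, and fibroblasts are their major source. The genes described here are all rows of the deposited mouse count table whose symbol is Col, a type number, the letter a and a chain number, which gave 43 of 37991 rows. They fall into 11 fibrillar chains, 6 chains of type IV collagen (the basement membrane class), 9 FACIT chains (fibril-associated collagens with interrupted triple helices) and 17 chains of other types. Col21a1 and Col26a1 were not analysed here.

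Collagen chains are secreted as procollagens and coil around one another into a triple helix. Fibrillar types I, III and V co-assemble into the banded fibrils of connective tissue, and FACIT chains decorate the surface of such fibrils. Type IV forms the sheet-like network of basement membranes, the layer on which epithelial, endothelial and, at the surface of the developing cortex, neural progenitor cells rest. Type VI forms beaded microfibrils around cells, and types XV and XVIII are proteoglycans of the basement membrane zone.

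The ciNSLCs (3 libraries) are neural stem-like cells obtained by chemical treatment of mouse fibroblasts. The course that leads to them starts at D0 (2 libraries) with tdMEFs, embryonic fibroblasts of 129xC57BL6 background in which Cre, driven by the Fsp1 promoter, switches on tdTomato from the ROSA26 locus, grown in serum medium at 20% O2. It goes on with the same cells after 4, 8 and 12 days (D4, D8 and D12, 3 libraries each) in serum-free M9 medium at 5% O2, which holds CHIR99021, LDN193189, A83-01, Hh-Ag1.5, retinoic acid, SMER28, RG108, Parnate and bFGF. Of these, LDN193189 inhibits BMP receptors, A83-01 inhibits TGF-beta receptors, CHIR99021 inhibits GSK3 and Hh-Ag1.5 activates Hedgehog signalling. SCR029, a commercial neural stem cell line from C57BL6 cortex at E15 to E18, and priNPC, primary progenitors from 129xC57BL6 cortex at E13.5, served as neural controls with 1 library each, so neither has a spread of its own. Descriptions of ciNSLC replicates 2 and 3 hold the codes ciN_1_P4 and ciN_2_P2, and whether the 3 ciNSLC libraries are separate lines or passages is not said. The tdMEFs carried fibroblast markers at a summed level of 12546 to 16959.6 CPM (counts per 1e6 library counts, scaled here with the TMM method), against 1710.2 to 2556 CPM in ciNSLCs. That sum was 2028 CPM in SCR029 and 2659 CPM in priNPC. In the ciNSLCs and both neural controls it came mostly from the marker Vim. A neural stem list of 10 genes summed to 3828 to 4976 CPM in ciNSLCs, against 47.1 to 64.0 CPM in tdMEFs.

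The libraries held 29.4 M to 55.5 M counts (M, 1e6), of which the 2 mitochondrial rRNA genes took 14.3% to 53.0%. Replicate 1 of every group of the course, and SCR029, form batch 1; replicates 2 and 3, and priNPC, form batch 2. The replicate 1 libraries of D4 and D8 stood furthest apart from their groups for collagens. Among 30 collagens with a mean of at least 1 CPM, D4 replicate 1 was under 1/2 of both other D4 libraries for 26, and D8 replicate 1 for 22, whereas the same held for 12.7% and 11.1% of all 13143 genes at that level. D12 replicate 1 was under 1/2 of both other D12 libraries for 10 of the 30, and for 10.2% of all genes. In D4 and D8 replicate 1 mitochondrial rRNA took 52.7% and 49.7% of the counts. High shares were not particular to them. The ciNSLC libraries had 49.25%, 53.04% and 44.31% and SCR029 47.39%, against 22.61% and 14.33% in the D0 libraries. The part of these differences in the results was not tested. The numbers of genes called below are also given without D4 and D8 replicate 1, a fit that kept D12 replicate 1. The D0 libraries differed from each other in 12 myeloid markers, which summed to 14.4 CPM in replicate 1, with 8 of 12 under 1 CPM, and to 3677 CPM in replicate 2, with none under 1 CPM.

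Collagens took a far larger share of the fibroblast counts than of those of the ciNSLCs. Their share of all counts was 2.67% and 3.74% in the D0 libraries. It was 0.0995%, 1.19% and 1.09% at D4, 0.197%, 1.57% and 1.56% at D8, and 0.968%, 1.29% and 1.30% at D12. In ciNSLCs the share was 0.0293%, 0.0335% and 0.0379%, against 0.0133% in SCR029 and 0.0582% in priNPC. Every treated library was thus below both D0 libraries, and every ciNSLC library below every library of the course and between the neural controls. Whether fewer cells made collagen or each cell made less collagen RNA cannot be told apart in these bulk samples.

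**Figure D1:**
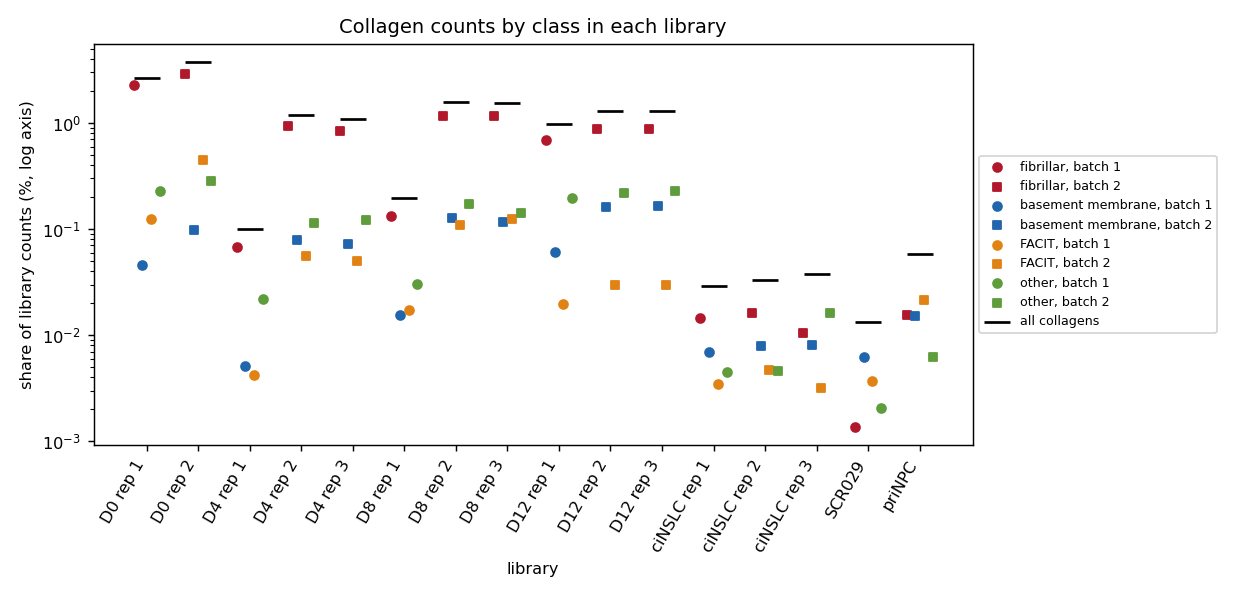
Share of library counts (%, log axis) taken by each collagen class in each of the 16 libraries, with a black bar for all collagens; circles are batch 1 and squares batch 2. Fibrillar chains are the top class in every library from D0 to D12, and the replicate 1 libraries of D4 and D8 sit lowest in their groups at 0.0995% and 0.197%.

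The makeup of the collagen counts also differed between groups. Fibrillar chains held 85.2% and 77.7% of collagen counts at D0, 68.4% to 79.1% at D4, 67.8% to 75.4% at D8 and 67.4% to 71.7% at D12. They held 49.3%, 48.8% and 27.8% in ciNSLCs, against 10.3% in SCR029 and 26.6% in priNPC. Type IV held 1.73% and 2.65% at D0, 5.18% to 6.63% at D4, 7.52% to 8.02% at D8 and 6.21% to 12.7% at D12. In ciNSLCs type IV held 21.3% to 23.6%, against 46.6% in SCR029 and 26.1% in priNPC. Type IV thus held a larger share in all 3 ciNSLC libraries than in any library of the course.

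The chains that led each group also differed. On the scale of mean CPM per kilobase of exon, Col1a1 led at D0 with 1355, followed by Col1a2 with 576 and Col3a1 with 446. At D12 Col3a1 with 325 and Col1a1 with 324 led. In ciNSLCs the highest were Col11a1 with 11.1, Col18a1 with 8.24 and Col28a1 with 6.63. In SCR029 they were Col4a1 with 5.41, Col4a2 with 4.02 and Col28a1 with 3.64, and in priNPC Col9a3 with 10.4, Col12a1 with 8.84 and Col4a1 with 7.71. The number of collagens with a mean of at least 100 CPM was 13 of 43 at D0, 12 at D4, 14 at D8, 14 at D12 and 1 in ciNSLCs, and it was 0 in SCR029 and 1 in priNPC. It was 12 at D4 and 14 at D8 also without their replicate 1.

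**Figure D2:**
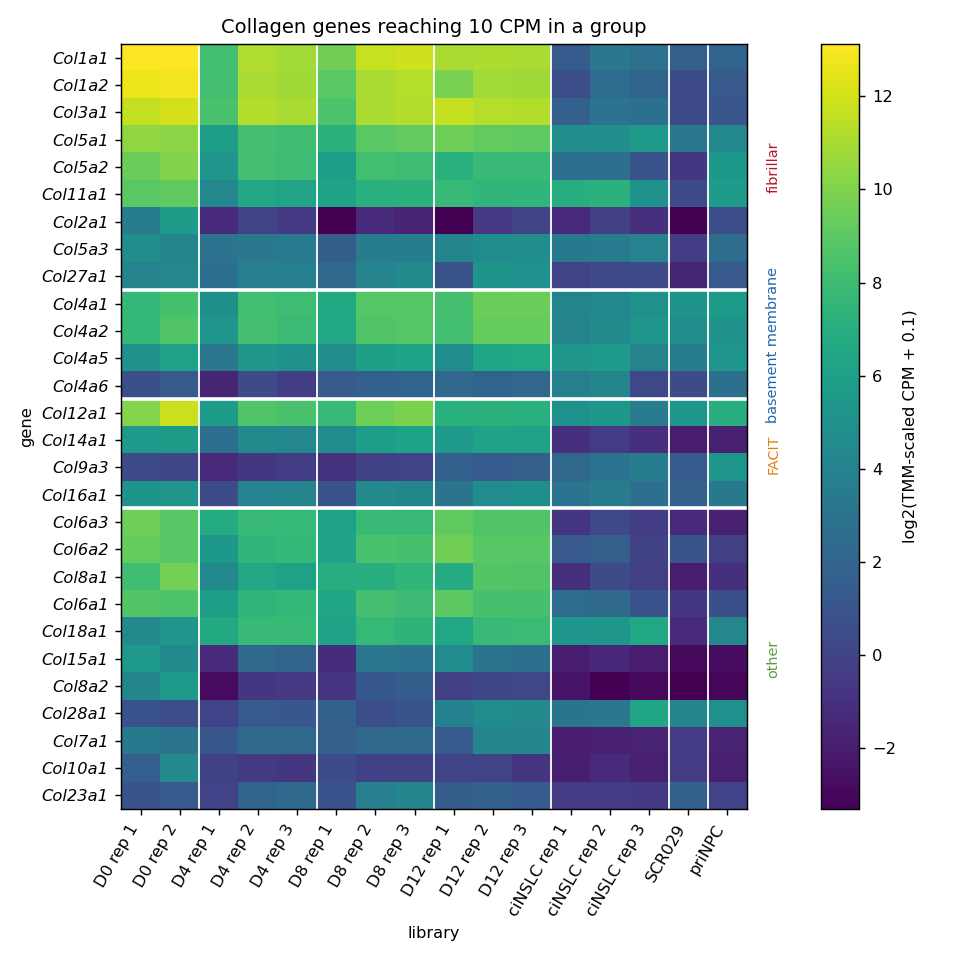
Levels, as log2(TMM-scaled CPM + 0.1), of the 28 collagen genes whose mean reaches 10 CPM in at least 1 group, by library and class. The columns of D0 to D12 are bright for most fibrillar chains and type VI, and most of these rows are darker in the 3 ciNSLC columns. Of the 28 genes, 17 stay above 1 CPM in all 3 ciNSLC libraries, among them 7 of 9 fibrillar and all 4 type IV chains drawn.

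Changes were tested for all genes with edgeR's quasi-likelihood test, and a gene was called at a Benjamini-Hochberg adjusted p under 0.05 over all genes. Of the 43 collagens, 41 passed the filter on low counts; Col13a1 and Col6a4, at no more than 0.302 and 0.226 CPM in any library, did not. Because the filter keeps a gene that is high in at least 1 group, counts over the 41 tested chains describe them and are not support for a general change. The D4, D8 and D12 comparisons share the D0 libraries, and both ciNSLC comparisons with the course share the ciNSLC libraries, so their values are given side by side only. The labels do not say whether replicates came from separate cultures, so the p-values measure the spread between these libraries, which may be technical. Batch 2 holds 1 D0 library, replicate 2, the one with the high myeloid sum, and 1 neural control, priNPC. Fits in batch 2 alone, without 1 D0 library or with 1 control thus have no spread for that lone library. Their calls against it are given beside the reported ones only.

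After 4 days of treatment, 8 of 41 collagens fell and 1 rose against D0, where 7.22% of all tested genes were called, 3.54% higher and 3.68% lower. The collagens that fell were Col8a2, Col2a1, Col10a1, Col8a1, Col12a1, Col11a1, Col5a1 and Col6a3, and Col18a1 rose. The median log2 change of the 41 was -1.36, against 0.02 for all genes. By class, 3 of 11 fibrillar, 0 of 6 basement membrane, 1 of 9 FACIT and 4 of 15 other chains fell. A block for the replicate number gave 14 calls, with 10.3% of all genes called, adding Col1a1, Col1a2, Col5a3, Col14a1 and Col24a1 among those that fell. Without D4 and D8 replicate 1 there were 13 calls, with 7.18% of all genes called, and 5 fibrillar, 0 basement membrane, 2 FACIT and 5 other chains among those that fell. In batch 2 alone there were 19, with 14.7% of all genes called. Without D0 replicate 2 Col8a2 was the 1 chain called.

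At D8, 4 of 41 collagens fell and 3 rose against D0, with 7.15% of all genes called, 4.10% higher and 3.05% lower. Those that fell were Col2a1, Col8a2, Col10a1 and Col6a3, and those that rose were Col18a1, Col22a1 and Col4a4. The median log2 change was -1.06, against 0.02 for all genes. The replicate block gave 13 calls, with 9.02% of all genes called, and the fit without D4 and D8 replicate 1 gave 11, with 8.08% of all genes called. Batch 2 alone gave 19, with 15.4% of all genes called. Leaving out single libraries lowered the count to 1 without D0 replicate 2 (Col2a1), 3 without D0 replicate 1, 4 without D4 replicate 2, 4 without D8 replicate 2 and 3 without D8 replicate 3.

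At D12, 4 collagens fell and 4 rose against D0, with 10.5% of all genes called, 5.81% higher and 4.73% lower. Col2a1, Col8a2, Col10a1 and Col12a1 fell, and Col18a1, Col28a1, Col22a1 and Col4a4 rose. Leaving out either D0 library ended the Col22a1 and Col4a4 calls at both D8 and D12. The median log2 change was -0.02, against 0.01 for all genes. Without D4 and D8 replicate 1 there were 13 calls, adding Col1a1, Col1a2, Col5a1 and Col5a2 among those that fell and Col9a3 among those that rose, with 15.3% of all genes called. Batch 2 alone gave 19, with 22.1% of all genes called. The replicate block gave 10, with 12.6% of all genes called, adding Col1a1 and Col1a2 among those that fell. Without D0 replicate 2 there was 1 call (Col8a2), and without D0 replicate 1 there were 4.

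From D4 to D12 the calls of the reported fit went one way. Of the 41 chains 4 were higher at D12 than at D4 and 0 were lower, with 3.87% of all genes called, 2.50% higher and 1.36% lower. At an unadjusted p under 0.05, 17 were higher and 0 lower, but the share of all genes at that p was not counted. The 4 were Col28a1, Col14a1, Col9a3 and Col22a1, and the median log2 change of the 41 was 1.21, against 0.01 for all genes. The replicate block gave 8 calls, adding Col4a1, Col4a2, Col8a1 and Col24a1, with 6.28% of all genes called. In batch 2 alone 16 were called, 15 higher and 1 lower, with 16.2% of all genes called. Without D4 and D8 replicate 1 there were 5, with 5.05% of all genes called. The count fell to 1 without D4 replicate 1 (Col9a3), 0 without D4 replicate 2, 1 without D4 replicate 3, 2 without D12 replicate 2 and 1 without D12 replicate 3.

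The ciNSLCs stood far from the fibroblasts. Against D0, 22 of 41 collagens fell and 3 rose, with 28.2% of all genes called, 16.5% lower and 11.7% higher. The median log2 change was -3.54, against -0.07 for all genes. Fibrillar chains fell in 9 of 11 cases, FACIT chains in 2 of 9, basement membrane chains in 2 of 6 and other chains in 9 of 15, and the 3 that rose were Col28a1, Col9a3 and Col22a1. Against D12, 23 fell and 1 (Col9a3) rose, with 27.5% of all genes called, 16.5% lower and 11.0% higher. There the median was -2.38, against -0.09 for all genes. Without D4 and D8 replicate 1, 30 collagens were called against D0 and 27 against D12, with 33.6% and 34.4% of all genes called. Against D0 10 fibrillar, 2 basement membrane, 3 FACIT and 11 other chains then fell. In batch 2 alone the counts were 28 and 31, with 33.7% and 45.7% of all genes called. With the replicate block, where 33.7% of all genes were called in both comparisons, they were 29, adding Col4a6 higher and Col5a3, Col16a1 and Col25a1 lower, and 26, adding Col10a1 and Col25a1 lower.

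**Figure D3:**
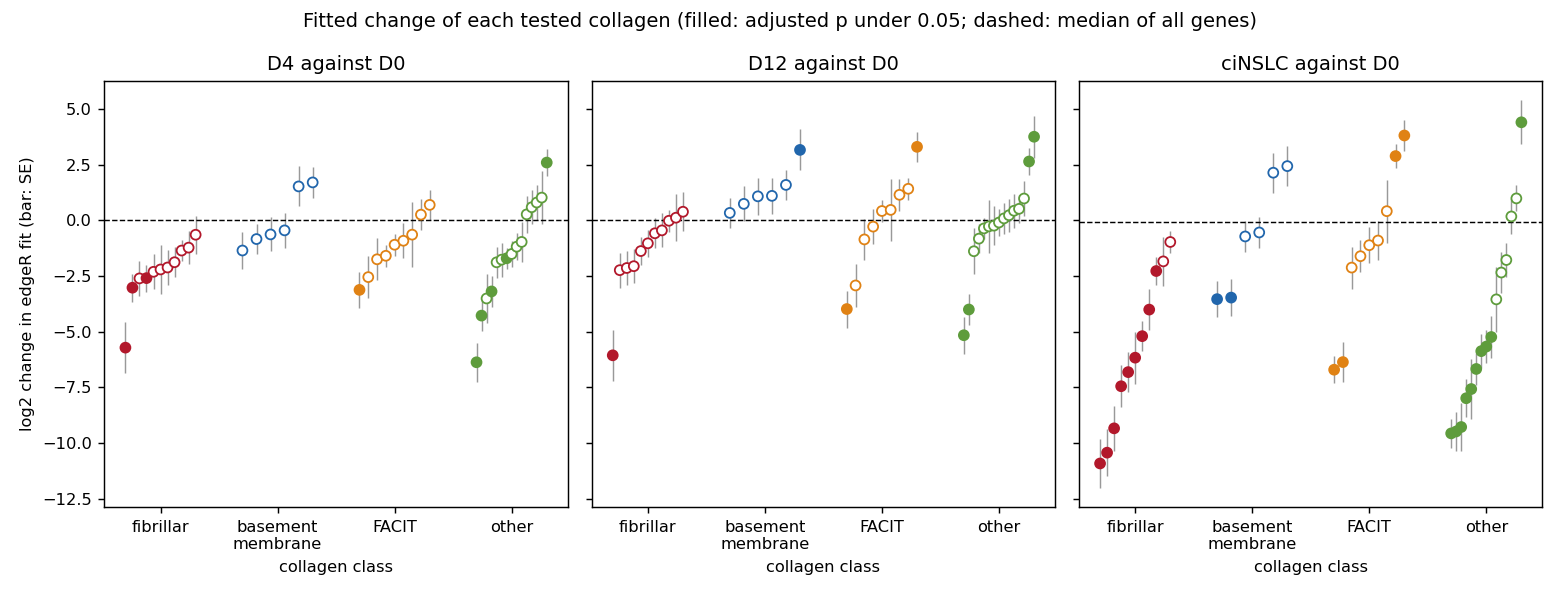
Fitted log2 change, with its SE, of each tested collagen at D4, at D12 and in ciNSLCs against D0, by class and in rising order; filled points have an adjusted p under 0.05 and the dashed line is the median of all genes. In ciNSLCs the 9 called fibrillar chains lie between -10.92 and -2.28, while called chains above the line are in the FACIT and other classes.

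The fibrillar chains carried most of the signal that fell. Types I, III and V form heterotypic fibrils, and the genes of their main chains all fell in ciNSLCs, so the 250 bases before the annotated start of 3 of them are shown, from RefSeq on GRCm38.p6, plus strand: Col1a2 (chr6:4505368-4505617), Col3a1 (chr1:45311288-45311537) and Col5a1 (chr2:27886175-27886424). Capitals mark motifs searched on both strands, none of which overlaps another here. They are the CCAAT box, spelled CCAAT, the GC box, with the letters GGGCGG, and the TATA box, read as TATAAA.
Col1a2 promoter: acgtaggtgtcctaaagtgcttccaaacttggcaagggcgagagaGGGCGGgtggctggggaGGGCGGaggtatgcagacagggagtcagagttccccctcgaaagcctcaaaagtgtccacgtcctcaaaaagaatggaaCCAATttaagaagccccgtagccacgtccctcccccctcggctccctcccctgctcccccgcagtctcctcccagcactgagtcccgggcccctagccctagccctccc
Col3a1 promoter: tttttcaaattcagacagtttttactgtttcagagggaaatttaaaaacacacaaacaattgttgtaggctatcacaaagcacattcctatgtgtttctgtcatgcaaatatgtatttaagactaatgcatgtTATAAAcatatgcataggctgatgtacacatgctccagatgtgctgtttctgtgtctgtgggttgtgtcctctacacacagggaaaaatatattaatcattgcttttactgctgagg
Col5a1 promoter: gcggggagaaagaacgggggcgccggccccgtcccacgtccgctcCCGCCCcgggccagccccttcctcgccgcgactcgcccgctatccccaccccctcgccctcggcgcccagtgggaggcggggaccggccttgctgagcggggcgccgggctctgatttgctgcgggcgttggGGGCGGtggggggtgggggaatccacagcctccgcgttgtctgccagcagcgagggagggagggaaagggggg
The windows differ in base composition, with 62% G and C in Col1a2, 35.2% in Col3a1 and 76.4% in Col5a1. The Col1a2 window holds a CCAAT box that begins 109 bases before the start and 2 GC boxes, that of Col3a1 holds a TATA box 117 bases before the start, and that of Col5a1 holds 2 GC boxes, the first of them on the minus strand and so printed as its reverse complement, CCGCCC. Over the 38 windows that matched 35 collagen genes, 34.2% hold a CCAAT box, 57.9% a GC box and 13.2% a TATA box, against 33.8%, 32.7% and 12.4% of all 32851 windows. These matches describe the letters only.

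Col1a1 (chr11:94797538-94814356 in the mm9 coordinates of the files) and Col1a2 (chr6:4454814-4491543) encode the chains of type I collagen, the main fibril of skin, bone and tendon. Col1a1 had 8827 and 8958 CPM at D0, 284, 2280.5 and 1803 at D4, 749, 3380.1 and 3864 at D8, 2086, 2231 and 2067 at D12 and 2.65, 9.34 and 7.35 in ciNSLCs. Every treated library was below D0 and the 3 ciNSLC libraries were below all others of the course, with D4 replicate 1 and D8 replicate 1 lowest in their groups. The log2 change in ciNSLCs was -10.43 ± 1.05 (SE, adjusted p = 1.7e-05) against D0 and -8.37 ± 0.96 (SE, adjusted p = 6e-05) against D12. At D4, D8 and D12 the Col1a1 values were -2.61, -1.74 and -2.06 against D0 and did not pass the test (adjusted p = 0.064, 0.21 and 0.11), although no treated library overlapped D0. With the replicate block Col1a1 was called at all 3 times, with log2 changes of -3.28, -2.35 and -2.29 (edgeR, adjusted p = 0.01, 0.043 and 0.031). Col1a2 had 6589 and 7404 CPM at D0, 293, 2124 and 1801 at D4, 482, 2125 and 2489.7 at D8, 891, 1816 and 1731 at D12 and 1.42, 5.56 and 3.93 in ciNSLCs. It too was below D0 in every treated library, with -10.92 ± 1.10 (SE, adjusted p = 1.7e-05) in ciNSLCs against D0, the largest fall among the collagens in that comparison.

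Col3a1 (chr1:45368383-45406551), the chain of type III collagen, which is abundant in elastic and embryonic tissue, had 3174 and 4321 CPM at D0, 342, 2373 and 2079 at D4, 361, 2070.0 and 2382 at D8, 3239.6, 2500.0 and 2454 at D12 and 3.18, 7.74 and 6.43 in ciNSLCs. Unlike Col1a1, its D12 libraries overlapped D0: the D12 over D0 log2 change was -0.46 ± 0.76 (SE, adjusted p = 0.78) and did not pass the test. In ciNSLCs it fell by 9.34 on the log2 scale against D0 (SE 1.00, adjusted p = 2.6e-05) and by 8.89 against D12 (SE 0.97, adjusted p = 4e-05).

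Type V chains help to start fibrils and limit their width. Col5a1 had 1323 and 1207 CPM at D0, 58.7, 298 and 270.2 at D4, 153, 485 and 569.8 at D8, 737, 572 and 541 at D12 and 26.4, 29.8 and 46.7 in ciNSLCs. It was lower in every treated library than at D0, fell at D4 by 2.60 ± 0.61 (SE, adjusted p = 0.022) on the log2 scale, a call that was lost without D0 replicate 1 or replicate 2, and reached -5.20 ± 0.67 (SE, adjusted p = 0.0001) in ciNSLCs against D0. Col5a2 had 699.9 and 1039 CPM at D0, 38.6, 301 and 259.6 at D4, 56.7, 285 and 264 at D8, 145, 215 and 230.2 at D12 and 6.30, 6.72 and 1.86 in ciNSLCs, and its log2 change in ciNSLCs against D0 was -7.45 ± 0.95 (SE, adjusted p = 9.5e-05). Col5a3, a lower chain at 28.1 and 19.0 CPM at D0, had 9.92, 10.5 and 15.4 CPM in ciNSLCs and did not pass the test there, but was called lower with the replicate block and without D4 and D8 replicate 1.

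Col11a1, a chain of type XI collagen that nucleates fibrils with type II in cartilage, had the highest mean level per length of the collagens in ciNSLCs. It had 481 and 559 CPM at D0, 19.6, 93.0 and 78.5 at D4, 73.4, 140.3 and 149 at D8, 227, 185 and 185 at D12 and 135, 152 and 34.0 in ciNSLCs, against 1.33 in SCR029 and 55.2 in priNPC. All 3 ciNSLC libraries were below D12, replicate 3 by far the most. Col11a1 fell at D4 (-3.03 ± 0.63 SE, adjusted p = 0.012) and in ciNSLCs (-2.28 ± 0.62 SE, adjusted p = 0.015), both against D0 and both lost without D0 replicate 2, and against D12 its change was -0.90 ± 0.56 (SE, adjusted p = 0.26). Type XI made up 35.7%, 33.2% and 8.10% of the collagen counts of the ciNSLC libraries, against 0.865% in SCR029 and 10.8% in priNPC, and 1.94% and 1.84% at D0.

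Col2a1, the cartilage fibrillar chain, was present at D0 and near 0 afterwards. It had 12.4 and 54.8 CPM at D0, 0.301, 0.954 and 0.609 at D4, 0, 0.293 and 0.203 at D8, 0, 0.570 and 0.925 at D12 and 0.302, 0.756 and 0.372 in ciNSLCs. Both D0 libraries lay above every other library, and replicate 2 far above replicate 1. D8 replicate 1 and D12 replicate 1 had 0 counts, which allows up to 0.0656 and 0.0712 CPM on the scale of all library counts, before TMM scaling. The log2 change at D8 was -7.56 ± 1.25 (SE, adjusted p = 0.0038), and without D0 replicate 2 it was -6.14 and still called. Without that library the D4 and D12 changes, -5.72 and -6.06, were -4.29 and -4.63 and no longer called. Of 9 cartilage markers, 5 at D0 replicate 1 and 4 at replicate 2 reached 1 CPM, and Matn1 was at 0 in both. In the treated and ciNSLC libraries 7 or 8 of the 9 were under 1 CPM, and their sum there came mostly from Sox9, a transcription factor of cartilage that neural stem cells also express, with 251, 319.6 and 217 CPM in ciNSLCs.

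The last fibrillar chains were low. Col27a1, found in developing cartilage, had 16.4 and 19.3 CPM at D0, 6.32, 14.3 and 13.4 at D4, 4.32, 16.6 and 23.1 at D8, 1.71, 35.8 and 32.2 at D12 and 0.952, 1.11 and 1.25 in ciNSLCs, with D12 replicate 1 far below the other D12 libraries, and it fell in ciNSLCs (-4.01 ± 0.94 SE, adjusted p = 0.0063 against D0). Col24a1 stayed under 12 CPM and fell in ciNSLCs against D0 and D12, while Col11a2 stayed under 2 CPM and passed no test.

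**Figure D4:**
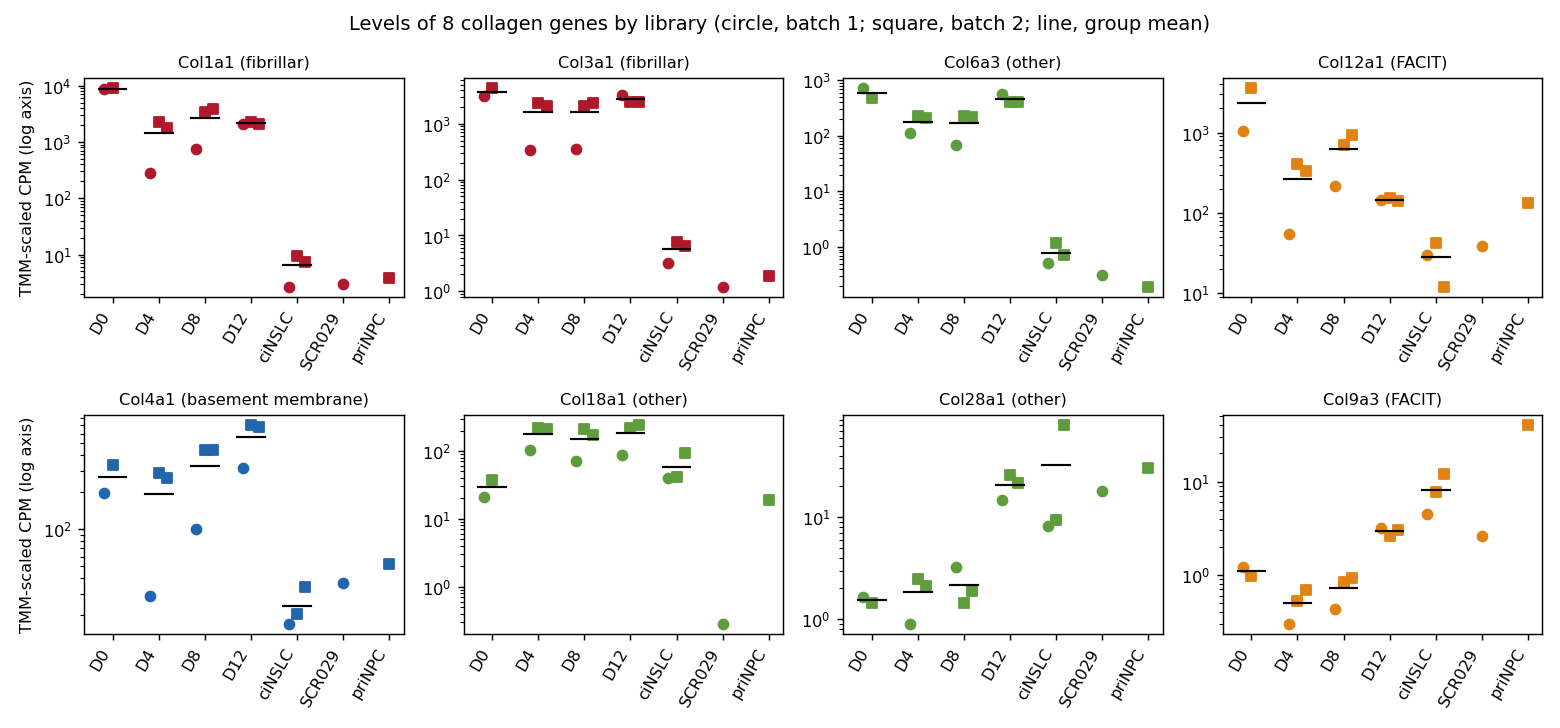
TMM-scaled CPM (log axis) of 8 collagen genes in each library of D0, D4, D8, D12, ciNSLC, SCR029 and priNPC; circles are batch 1, squares batch 2 and lines group means. Col1a1, Col3a1 and Col6a3 drop in ciNSLCs to under 10 CPM, Col12a1 is already down at D12, the group mean of Col4a1 is highest at D12, Col18a1 is raised from D4 to D12, and Col28a1 and Col9a3 are higher in ciNSLCs than at D0.

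Type IV collagen has 6 genes that lie head to head in pairs. Col4a1 (chr8:11198423-11312826) and Col4a2 (chr8:11312805-11449287) lie on opposite strands and encode the chains found in nearly all basement membranes. Col4a1 had 198 and 331 CPM at D0, 28.7, 287 and 263 at D4, 101, 442 and 442 at D8, 316, 703 and 677 at D12 and 17.1, 20.6 and 33.8 in ciNSLCs, against 36.9 in SCR029 and 52.6 in priNPC. The batch 2 libraries of D12 were above both D0 libraries and D12 replicate 1 lay between them. The D12 over D0 log2 change was 1.09 ± 0.82 (SE, adjusted p = 0.46) and did not pass the test. At D4 the change was -0.46 ± 0.78 (SE, adjusted p = 0.81), and it was 0.0767 without D4 replicate 1, so no direction can be given. In ciNSLCs Col4a1 fell, with log2 changes of -3.47 ± 0.81 (SE, adjusted p = 0.0064) against D0 and -4.57 ± 0.82 (SE, adjusted p = 0.0014) against D12. Col4a2 had 196 and 401 CPM at D0, 39.6, 297 and 239 at D4, 87.4, 411 and 448 at D8, 287, 596 and 607 at D12 and 16.2, 22.4 and 38.1 in ciNSLCs, and its changes in ciNSLCs were -3.54 ± 0.80 (SE, adjusted p = 0.0051) against D0, -2.94 without D0 replicate 2, and -4.28 ± 0.79 (SE, adjusted p = 0.0017) against D12. The fitted falls were smaller than those of the type I chains, a difference that was not itself tested. Endothelial cells also make type IV, and 8 of their markers summed to 1.09 to 1.76 CPM in ciNSLCs. The sum was 37.7 to 39.0 CPM at D0, 5.50 to 13.3 CPM at D4, 34.2 to 38.6 CPM at D8 and 38.8 to 41.6 CPM at D12. The sum at D0 was mostly Erg (36.4 and 34.3 CPM) and that at D12 mostly Emcn (35.6, 33.2 and 33.0 CPM), while 5 or 6 of the 8 were under 1 CPM at D0 and Pecam1 and Cldn5 stayed under 1 CPM in every library. Cdh5 had 0 and 4 counts at D0, 12, 103 and 73 at D4 and 23, 691 and 587 at D8. It had 34, 216 and 232 counts at D12 and 0, 1 and 0 in ciNSLCs. The part of endothelial cells in the result was not tested.

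The X-linked pair behaved otherwise. Col4a5 (chrX:137909928-138123778) and Col4a6 (chrX:137599946-137908619) encode chains of specialised basement membranes such as those of kidney and smooth muscle. Col4a5 had 34.5 and 68.4 CPM at D0, 9.15, 41.3 and 35.3 at D4, 26.7, 61.9 and 75.2 at D8, 25.7, 80.7 and 87.3 at D12 and 42.6, 46.5 and 16.3 in ciNSLCs, so that the ciNSLC values overlapped D0 (-0.55 ± 0.68 SE, adjusted p = 0.61, 0.0225 without D0 replicate 2). Col4a6 had 1.52 and 2.37 CPM at D0, 0.226, 1.28 and 0.710 at D4, 2.56, 3.18 and 3.86 at D8, 4.30, 3.83 and 4.14 at D12 and 12.8, 17.6 and 1.08 in ciNSLCs, above D0 in ciNSLC replicates 1 and 2 and below D0 in replicate 3. Its change against D0 was 2.43 ± 0.88 (SE, adjusted p = 0.057), it was 2.47 and called with the replicate block (edgeR, adjusted p = 0.048), and it was 3.02 and called without ciNSLC replicate 3. Col4a3 and Col4a4, the remaining pair, stayed under 3 CPM in every library. Col4a3 was called lower in ciNSLCs than at D12, and Col4a4 was called higher at D8 and D12 than at D0 (log2 change 3.50 and 3.16) at no more than 2.41 CPM.

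Among the FACIT chains, Col12a1 had the highest level per length at D0. Type XII collagen coats type I fibrils and is typical of tissue under tension. Col12a1 had 1059 and 3563 CPM at D0, 54.7, 407 and 332 at D4, 215, 708 and 940.0 at D8, 143, 152 and 142 at D12 and 29.9, 42.1 and 11.9 in ciNSLCs, against 38.5 in SCR029 and 135 in priNPC. D0 replicate 2 was far above replicate 1, the D8 libraries of batch 2 came close to D0 replicate 1, and the D12 libraries lay close together far below D0. The log2 change was -3.13 ± 0.81 (SE, adjusted p = 0.035) at D4, -1.90 ± 0.78 (SE, adjusted p = 0.18) at D8 and -3.99 ± 0.83 (SE, adjusted p = 0.01) at D12, and -2.00, -0.77 and -2.87 without D0 replicate 2. The D4 call was lost when any 1 of 8 of the 14 libraries was left out, while the D12 call was lost without D0 replicate 2. In ciNSLCs Col12a1 fell (-6.37 ± 0.91 SE, adjusted p = 0.00024 against D0, -5.25 without D0 replicate 2).

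Col14a1, a FACIT chain of mature connective tissue, followed another course. It had 46.2 and 49.5 CPM at D0, 6.02, 22.3 and 19.1 at D4, 24.5, 60.5 and 74.8 at D8, 48.4, 72.5 and 70.4 at D12 and 0.395, 0.623 and 0.372 in ciNSLCs. The D4 libraries and D8 replicate 1 lay below D0, and the other D8 and D12 libraries reached or passed it, with D12 higher than D4 by a log2 change of 2.01 ± 0.46 (SE, adjusted p = 0.032). That call was lost when any 1 of 6 of the 14 libraries was left out. In ciNSLCs Col14a1 fell to under 1 CPM in all 3 libraries. The log2 changes were -6.71 ± 0.61 (SE, adjusted p = 8.7e-06) against D0 and -7.12 ± 0.61 (SE, adjusted p = 6.6e-06) against D12, and both calls held under all 25 alternatives. Col16a1 had 7.46, 12.1 and 6.26 CPM in ciNSLCs, against 36.4 and 38.7 CPM at D0, a change of -2.13 ± 0.94 (SE, adjusted p = 0.12) that did not pass the test although the groups did not overlap. With the replicate block it was -2.48 and called (edgeR, adjusted p = 0.023).

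Col9a3 (chr2:180332495-180356894), a chain of type IX collagen known from cartilage and the eye, went the other way. It had 1.23 and 0.964 CPM at D0, 0.301, 0.528 and 0.685 at D4, 0.432, 0.839 and 0.925 at D8, 3.17, 2.61 and 2.99 at D12 and 4.44, 7.70 and 12.2 in ciNSLCs, against 2.58 in SCR029 and 40.2 in priNPC. The ciNSLC libraries were all above D12, and those of D12 all above D0, D4 and D8. The log2 change was 2.51 ± 0.45 (SE, adjusted p = 0.011) at D12 against D4, lost without D4 replicate 2. In ciNSLCs it was 2.88 ± 0.53 (SE, adjusted p = 0.0013) against D0 and 1.47 ± 0.43 (SE, adjusted p = 0.022) against D12, and the call against D12 was lost without D12 replicate 2, D12 replicate 3 or ciNSLC replicate 3. Its partners Col9a1 and Col9a2 stayed under 2 CPM in every library and passed no test. Whether counting used strand is not given, and Tcfl5 overlaps Col9a3 on the opposite strand with 894 counts over all libraries, against 3098 for Col9a3. Col22a1, a FACIT chain of tissue junctions, was called higher at D8, D12 and in ciNSLCs than at D0 but did not exceed 3.35 CPM, and Col19a1 and Col20a1 stayed under 3 CPM, with Col20a1 called lower in ciNSLCs than at D12.

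Type VI collagen links cells to the surrounding matrix, and its chains Col6a1, Col6a2 and Col6a3 fell in ciNSLCs. Col6a3 (chr1:92663435-92740529) had 713 and 469 CPM at D0, 110.5, 226 and 206 at D4, 67.7, 229 and 214 at D8, 559, 411 and 404 at D12 and 0.511, 1.16 and 0.711 in ciNSLCs. Its levels were lower at D4 and D8, overlapped D0 again at D12, and were near 1 CPM in ciNSLCs. The calls at D4 (-1.71 ± 0.48 SE, adjusted p = 0.049) and D8 (-1.80 ± 0.48 SE, adjusted p = 0.04) were lost when any 1 of 13 and of 11 of the 14 libraries was left out. The falls in ciNSLCs, -9.57 ± 0.64 (SE, adjusted p = 1e-06) against D0 and -9.20 ± 0.63 (SE, adjusted p = 1.7e-06) against D12, were called under all 25 alternatives. Col6a1 had 5.25, 5.07 and 1.66 CPM in ciNSLCs, against 426 and 393 CPM at D0 (-6.68 ± 0.71 SE, adjusted p = 2.5e-05). Col6a2 had 2.37, 3.03 and 0.846 CPM, against 592 and 464 CPM at D0 (-7.99 ± 0.86 SE, adjusted p = 2.7e-05). Col6a6 had 3 counts in all ciNSLC libraries together, against 117 at D0, where the level was 42.9 times as high (95% counting interval 14.3 to 211).

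Type VIII chains form the hexagonal lattice of Descemet's membrane and are made by vascular cells. Col8a1 had 272 and 839.9 CPM at D0, 22.4, 90.3 and 69.2 at D4, 122, 129.8 and 178 at D8, 109.7, 417 and 413 at D12 and 0.372, 1.25 and 0.779 in ciNSLCs. D0 replicate 2 was far above replicate 1, and the batch 2 libraries of D12 had come back into the D0 range. Col8a1 fell at D4 (-3.20 ± 0.69 SE, adjusted p = 0.014, -2.16 and not called without D0 replicate 2) and in ciNSLCs (-9.48 ± 0.89 SE, adjusted p = 1.1e-05, -8.46 without D0 replicate 2). Col8a2 had 19.0 and 47.6 CPM at D0, 0.0376, 0.548 and 0.558 at D4, 0.463, 2.22 and 2.75 at D8, 0.754, 1.01 and 1.02 at D12 and 0.0929, 0 and 0.0339 in ciNSLCs, far below D0 in every later library. It fell at D4 (-6.38 ± 0.88 SE, adjusted p = 0.0011) and did not come back at D12 (-5.16 ± 0.83 SE, adjusted p = 0.0024), with calls under all 25 alternatives at both times, and log2 changes of -5.58 and -4.36 without D0 replicate 2. At D8 the change was -4.19 ± 0.79 (SE, adjusted p = 0.0083), and it was -3.38 and not called without D0 replicate 2. Col10a1, the chain of hypertrophic cartilage, had 0.828, 0.589 and 0.507 CPM at D4, against 2.87 and 22.0 CPM at D0 (-4.28 ± 0.68 SE, adjusted p = 0.0026). That change was -2.17 and not called without D0 replicate 2, the library with the high myeloid sum, whose part was not tested, and Nt5dc1, which overlaps Col10a1 on the opposite strand, had 3878 counts over all libraries, against 1313 for Col10a1.

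Col18a1 (chr10:76514923-76629293), the basement membrane proteoglycan from which endostatin is cut, was raised during treatment. It had 21.1 and 37.6 CPM at D0, 102, 215 and 213 at D4, 71.0, 211 and 169 at D8, 88.6, 219 and 241 at D12 and 39.4, 41.2 and 92.9 in ciNSLCs, against 0.284 in SCR029 and 19.2 in priNPC. All 9 treated libraries were above both D0 libraries, also D4 and D8 replicate 1, in which most other collagens were low. The log2 change was 2.59 ± 0.63 (SE, adjusted p = 0.025) at D4, 2.36 ± 0.62 (SE, adjusted p = 0.038) at D8 and 2.64 ± 0.63 (SE, adjusted p = 0.018) at D12. These calls were lost without D0 replicate 1 or D0 replicate 2, and in part without a batch 2 library of D4, D8 or D12. In ciNSLCs Col18a1 was above D0 in every library but not called (0.98 ± 0.58 SE, adjusted p = 0.24), and below most D12 libraries (-1.66 ± 0.52 SE, adjusted p = 0.03). Slc19a1 overlaps it on the opposite strand with 4563 counts over all libraries, against 72372 for Col18a1. Its relative Col15a1 had 46.2 and 21.3 CPM at D0, 0.301, 4.59 and 3.88 at D4, 0.340, 8.72 and 7.76 at D8, 24.3, 7.80 and 6.45 at D12 and 0.139, 0.267 and 0.135 in ciNSLCs and fell in ciNSLCs (-7.58 ± 1.35 SE, adjusted p = 0.0011 against D0), with D4 and D8 replicate 1 under 1 CPM.

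Col28a1 (chr6:7947808-8142617), whose product has been found mainly around peripheral nerve, appeared late. It had 1.65 and 1.43 CPM at D0, 0.903, 2.46 and 2.13 at D4, 3.24, 1.44 and 1.87 at D8, 14.6, 25.8 and 21.8 at D12 and 8.25, 9.30 and 79.8 in ciNSLCs, against 17.8 in SCR029 and 30.2 in priNPC. The D12 and ciNSLC libraries were all above every library from D0 to D8, with ciNSLC replicate 3 far above its group. The log2 change was 3.75 ± 0.95 (SE, adjusted p = 0.025) at D12 and 4.40 ± 0.98 (SE, adjusted p = 0.0048) in ciNSLCs, both against D0. The D12 call was lost without D0 replicate 1, D0 replicate 2, D12 replicate 2 or D12 replicate 3, and the ciNSLC value was 2.56 and still called without ciNSLC replicate 3. Type XXVIII made up 2.18%, 2.03% and 18.9% of collagen counts in the ciNSLC libraries, against 10.5% in SCR029 and 5.89% in priNPC. Of the remaining chains, Col7a1, the anchoring fibril collagen of skin, had 0.139, 0.178 and 0.203 CPM in ciNSLCs, against 9.93 and 7.84 CPM at D0, and fell (-5.67 ± 0.74 SE, adjusted p = 0.00012). The transmembrane collagen Col23a1 peaked at D8 with 1.64, 12.9 and 18.3 CPM, against 1.87 and 2.42 CPM at D0, without passing the test, and fell in ciNSLCs against D12 (-2.21 ± 0.74 SE, adjusted p = 0.04), a call lost when any 1 of 9 of the 14 libraries was left out. Col25a1, another transmembrane chain, had 1.46 and 1.75 CPM at D0, 0.452, 1.06 and 0.913 at D4, 0.988, 1.95 and 2.68 at D8, 1.53, 1.06 and 1.46 at D12 and 0.116, 0 and 0.812 in ciNSLCs and passed no test, but was called lower in ciNSLCs with the replicate block. Col17a1 and Col6a5 stayed under 4 CPM and passed no test.

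Chains that share a molecule kept their proportions to different degrees. Per length, the ratio of Col1a1 over Col1a2, which assemble in a ratio of 2 to 1, ran from 1.80 to 4.56 over the 16 libraries with a median of 2.88. It was 2.48 and 2.24 at D0, 1.80 to 1.99 at D4 and 3.11 to 3.46 in ciNSLCs. Col4a1 over Col4a2 stayed between 0.703 and 1.51 with a median of 1.03, although Col4a1 ran from 17.1 to 703 CPM. Col5a1 over Col5a2 was wider, with 2.14 and 1.31 at D0, 2.66 to 5.75 at D12, 4.74, 5.01 and 28.3 in ciNSLCs and 0.530 in priNPC. Col6a3 over Col6a1 was 0.0358, 0.0838 and 0.158 in ciNSLCs, from 21 to 26 counts of Col6a3 a library, against 0.615 and 0.439 at D0. These are mRNA ratios on a per-length scale, and they rest on the feature lengths in the files.

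**Figure D5:**
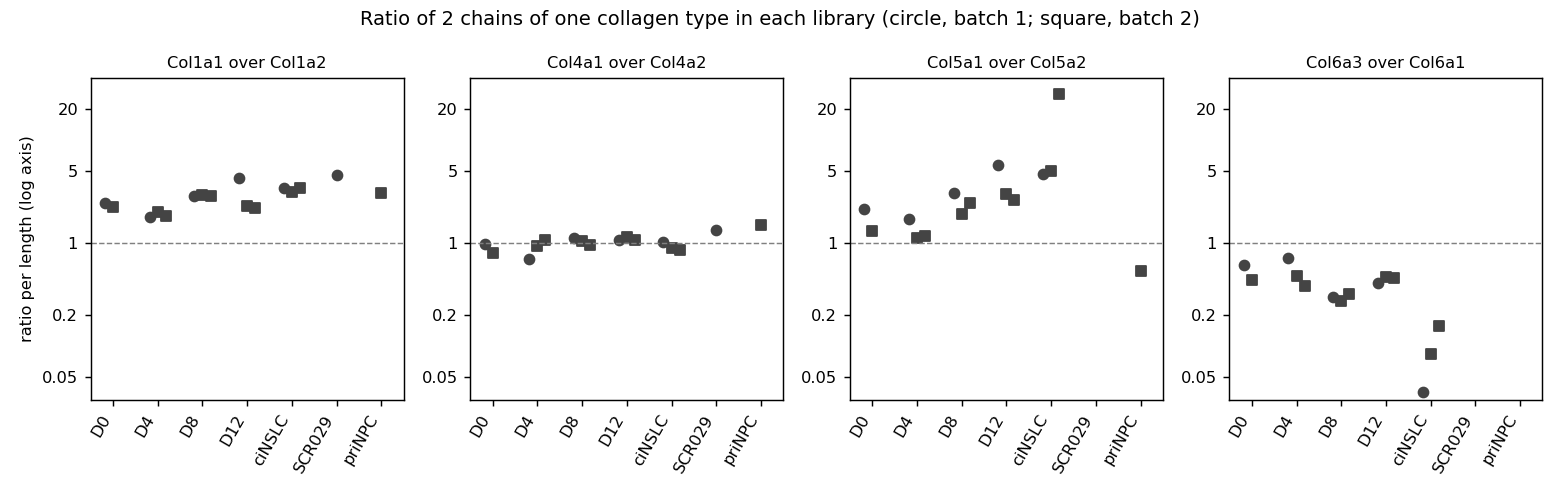
Per-length ratio (log axis) of 2 chains of types I, IV, V and VI in each library with at least 20 counts of both; circles are batch 1 and squares batch 2, and the dashed line is a ratio of 1. Col4a1 over Col4a2 stays within 0.703 to 1.51, while Col5a1 over Col5a2 reaches 28.3 and Col6a3 over Col6a1 drops to 0.0358 in ciNSLCs.

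Against the neural controls the ciNSLCs differed in no collagen that passed the test. SCR029 and priNPC were coded as 1 control group, whose spread then includes the difference between a cell line and primary cells. None of 41 collagens was called by edgeR's quasi-likelihood test, where 1.53% of all genes were, and neither DESeq2 nor limma voom called any. The background was 0.879% of all genes higher and 0.652% lower. At an unadjusted p under 0.05, 7 were higher (Col14a1, Col18a1, Col22a1, Col3a1, Col5a3, Col6a1 and Col6a3) and 1, Col20a1, was lower. The share of all genes at that p was not counted. The main fibrillar chains were low in both kinds of cell. Col1a1 had 2.65, 9.34 and 7.35 CPM in ciNSLCs, against 3.01 in SCR029 and 3.82 in priNPC, and Col3a1 had 3.18, 7.74 and 6.43 CPM, against 1.19 in SCR029 and 1.88 in priNPC. In batch 2 alone, with priNPC as the control, 9 of 41 were called, with 11.9% of all genes called: Col18a1, Col5a3, Col6a3, Col1a1 and Col3a1 higher, and Col5a2, Col12a1, Col9a3 and Col20a1 lower. Either control alone leaves 1 control library, and the share of all genes called in those fits was not counted. Of chains picked from those fits, Col11a1, Col18a1 and Col5a3 were lower in SCR029 than in every ciNSLC library. Col9a3 was higher in priNPC than in every ciNSLC library. Without D4 and D8 replicate 1, Col3a1 was called higher, with 2.46% of all genes called.

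The enzymes and partners of collagen were counted from lists of 72 genes in all. Their numbers in ciNSLCs against D0 stand beside 16.5% of all genes lower and 11.7% higher, and 33.6% called in either direction without D4 and D8 replicate 1. Of 20 tested genes for chain modification and folding, 12 fell and 2 rose in ciNSLCs against D0, and 14 fell and 2 rose without D4 and D8 replicate 1. P4ha2, a subunit of prolyl 4-hydroxylase, had 0.279, 0.311 and 0.0339 CPM in ciNSLCs, against 119 and 69.1 CPM at D0, 2.44 in SCR029 and 7.80 in priNPC. It was lower than at D0 (-8.79 ± 0.84 SE, adjusted p = 1.2e-05) and also lower than in the neural controls (-4.60 ± 0.81 SE, adjusted p = 0.012). Creb3l1, a transcription factor known to drive type I collagen, fell in ciNSLCs (-4.82 ± 0.43 SE, adjusted p = 7.7e-06 against D0). It had 189 and 203 CPM at D0, 121, 257 and 208 at D4, 144, 277 and 320 at D8 and 225, 226 and 228 at D12. Unlike Col1a1, Creb3l1 was thus not below D0 in every treated library. Glt25d2, a collagen galactosyltransferase, rose in ciNSLCs (5.69 ± 1.03 SE, adjusted p = 0.0012 against D0).

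Of 13 genes for propeptide removal and crosslinking, 9 fell and 0 rose in ciNSLCs against D0, where 16.5% of all genes were lower and 11.7% higher. At D4, D8 and D12, 3, 3 and 4 fell, with 3.68%, 3.05% and 4.73% of all genes lower, and 0, 0 and 1 rose, with 3.54%, 4.10% and 5.81% higher. The 1 that rose was Tll2, a protease of the tolloid family, with 1.38, 2.01 and 1.51 CPM at D12, against 0 and 0.0261 CPM at D0. With D4 and D8 replicate 1 left out, 9 fell and 2 rose in ciNSLCs. At D4, D8 and D12 3, 4 and 6 then fell and 1, 0 and 2 rose, with 7.18%, 8.08% and 15.3% of all genes called. Lox, the lysyl oxidase that crosslinks fibrils, had 2394 and 2810.0 CPM at D0, 56.5, 341 and 347 at D4, 145, 401 and 389.7 at D8, 41.5, 147 and 132 at D12 and 0.674, 1.47 and 1.15 in ciNSLCs. It was down in every treated library, with a log2 change of -3.39 ± 0.72 (SE, adjusted p = 0.013) at D4, -4.60 ± 0.75 (SE, adjusted p = 0.0027) at D12 and -11.23 ± 0.98 (SE, adjusted p = 6.6e-06) in ciNSLCs, all against D0.

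All 10 listed small leucine-rich proteoglycans that bind fibrils were called lower in ciNSLCs against D0, where 16.5% of all genes were lower. Not all were separate from D0 or well expressed there. Prelp had 32.3, 48.8 and 11.2 CPM in ciNSLCs, against 33.2 and 233 CPM at D0, so its libraries overlapped. Kera had only 0.916 and 0.964 CPM at D0, and Epyc 1.42 and 2.84 CPM. At D4, D8 and D12, 5, 3 and 3 fell, with 3.68%, 3.05% and 4.73% of all genes lower. There 0, 0 and 1 rose, with 3.54%, 4.10% and 5.81% of all genes higher. When D4 and D8 replicate 1 were left out, 10 fell in ciNSLCs, with 33.6% of all genes called. At D4, D8 and D12, 5, 3 and 4 then fell and 1, 1 and 3 rose, with 7.18%, 8.08% and 15.3% of all genes called. Dcn (decorin) went the other way at D12. It had 165 and 329.6 CPM at D0, 316, 809 and 852 at D4, 318, 1242 and 1210.2 at D8, 1763, 2413 and 2316 at D12 and 0.883, 2.76 and 2.37 in ciNSLCs, and rose at D12 (3.13 ± 0.70 SE, adjusted p = 0.014), while Fmod (fibromodulin) fell (-6.92 ± 0.77 SE, adjusted p = 0.00027). Of 11 basement membrane partners, 6 fell and 1 rose in ciNSLCs against D0, beside 16.5% of all genes lower and 11.7% higher, and 7 fell and 2 rose without D4 and D8 replicate 1. Nid1 (nidogen), which joins laminin to type IV collagen, had 2174, 2318 and 2206 CPM at D12, against 797 and 659.9 CPM at D0 (1.62 ± 0.40 SE, adjusted p = 0.023). In ciNSLCs Nid1 had 47.7, 63.9 and 22.0 CPM and fell against D0 (-4.03 ± 0.40 SE, adjusted p = 1.5e-05). Hspg2 (-2.17) and Nid2 (-1.65) were also called lower there. The 1 that rose, the laminin chain Lama5, had 66.2, 89.8 and 106 CPM in ciNSLCs, against 7.73 and 23.3 CPM at D0 (2.49 ± 0.44 SE, adjusted p = 0.00095).

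Among 9 tested collagen receptors, 4 fell and 3 rose in ciNSLCs against D0, beside 16.5% of all genes lower and 11.7% higher. The numbers without D4 and D8 replicate 1 were 5 and 4. The discoidin domain receptors went opposite ways. Ddr2, which binds fibrillar collagen, had 7.69, 9.39 and 4.43 CPM in ciNSLCs, against 307 and 324 CPM at D0 (-5.46 ± 0.32 SE, adjusted p = 4.4e-07). Ddr1, which also binds type IV, had 94.4, 86.7 and 64.3 CPM, against 14.3 and 17.5 CPM at D0 (2.37 ± 0.31 SE, adjusted p = 0.00012). Gpr56, a receptor for type III collagen in the developing cortex, rose (6.67 ± 1.24 SE, adjusted p = 0.0014). Itga11, the integrin subunit for fibrillar collagen on fibroblasts, had 0.715, 1.81 and 1.83 CPM at D4, against 157 and 363 CPM at D0, and fell by 7.46 on the log2 scale (SE 0.57, adjusted p = 3.1e-05). Of 8 collagen-degrading proteases, 5 fell and 0 rose in ciNSLCs against D0, among them Mmp14 (-3.88 ± 0.56 SE, adjusted p = 0.00026), beside the same shares of all genes. Of the 7 tested without D4 and D8 replicate 1, 5 fell and 0 rose.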

How the data were processed

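RNA was amplified with Ovation RNA-Seq V2, which does not mark strand, and sequenced as 100-base read pairs, per the labels' protocols. TopHat2 2.0.13, featureCounts, edgeR and the mm9 genome are named in the submitters' processing notes, and whether counting used strand is not given in the sources used here. The deposited raw count per gene entered every fit. The deposited CPM, FPKM and normalized CPM (another unit, by the authors) and feature length (another unit) were checked against the counts, and of these only length was used. Rows without a symbol (415) took at most 0.151% of a library.

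Genes with few counts were left out by filterByExpr of edgeR. TMM scaling and robust quasi-likelihood fits were made with edgeR 4.0.16 in R 4.3.3, with group as the only term, over 14 libraries for the course (17455 genes) and over 16 with the neural controls as 1 group (17636 genes). SE is the absolute log2 change divided by the root of the F statistic. The scripts were tested on simulated data. Alternatives were DESeq2 1.42.0, its size factors, upper-quartile scaling, limma voom 3.58.1, other filters, a batch term, a replicate block, only the groups compared, batch 2 alone, either control alone, an added threshold of 1 on the absolute log2 change, each library left out, and, chosen after the data were seen, D4 and D8 replicate 1 left out together.

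Within the course the replicate number follows the batch in the labels (1 for batch 1, 2 and 3 for batch 2). The labels used here name the batches without saying what set them apart. The block is given beside results it moves. Same-numbered deviations from group means correlated at 0.103 to 0.122 for D4 and D0, 0.0624 to 0.162 for D8 and D0, 0.0981 to 0.142 for D12 and D0, 0.221 to 0.343 for D12 and D4, 0.143 to 0.187 for ciNSLC and D0 and 7.8e-05 to 0.235 for ciNSLC and D12. In batch 2, D4 replicates 2 and 3 correlated with the D12 library of the other number at 0.280 and 0.210, against 0.266 and 0.221 for the same number. The values thus do not show that replicates 2 and 3 are paired by number. Deviations of the 2 D0 libraries mirror each other, so values with D0 cannot separate pairing by number from batch.

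Levels are TMM-scaled CPM. Where a library has 0 counts, the limit of 95% confidence, 3 counts, is 0.0541 to 0.102 CPM of all library counts, without TMM scaling. Intervals and floors cover counting error only. The members and lists were chosen with earlier results of these data known. Named are, besides a panel of 24 collagens, the 5 called members per direction with the largest change whose higher group reached 10 CPM and up to 3 partners per list and direction; Col4a4, Col5a3, Col6a6, Col7a1, Col19a1, Col20a1, Col22a1, Col24a1 and Col27a1 were added to account for every class.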

Additional observations from a re-analysis of the deposited data

How the results depend on the processing

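Under the alternatives, the number of collagens called in ciNSLCs stayed within 1.5 times the reported one against D0 (24 to 28 with 1 library left out) and D12 (19 to 26), and the replicate block moved no count by over 1.5 times other than those at D4 and D8 against D0 and at D12 against D4. At D4 against D0, 9 calls became 14 with DESeq2, 16 with a batch term, 14 with the replicate block, 3 with only the groups compared and 19 in batch 2, and ran from 1 to 13 with 1 library left out. At D8 against D0, 7 became 12, 16, 13, 3 and 19 in that order, 11 without D4 and D8 replicate 1, and 1 to 9. At D12 against D0, 8 became 13 with DESeq2, 19 in batch 2, 13 without D4 and D8 replicate 1, and 1 to 11. At D12 against D4, 4 became 12 with DESeq2, 10 with a batch term, 8 with the block, 16 in batch 2, and 0 to 6. Against the neural controls, 0 became 1 without D4 and D8 replicate 1, and 0 to 0 with 1 library left out. That number also moved in batch 2 and with either control alone, which leave 1 control library. For DESeq2, the batch term, only the groups compared and 1 library left out, the share of all genes called was not counted. Those numbers therefore cannot be told apart from a general change in calls.

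Without the mitochondrial rRNA genes in the total, the collagen share was 0.0657% in ciNSLCs and 1.68% at D12, against 0.0253% in SCR029 and 0.0856% in priNPC. Without lengths the median of Col1a1 over Col1a2 was 1.55 and of Col6a3 over Col6a1 1.07. With 1 library left out, the log2 change of Col4a1 at D4 against D0 ran from -0.86 to 0.0767 (highest without D4 replicate 1), and it was 0.0774 without D4 and D8 replicate 1. That of Col4a5 in ciNSLCs against D0 ran from -0.96 to 0.0225 (highest without D0 replicate 2). The cause was not tested. With 2 D0 libraries, leaving 1 out assumes that the lone library varies like the other groups. Batch 2 alone assumes the same for D0 replicate 2 and priNPC.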

Other observations

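Over both D0 libraries, a few chains of cartilage and vascular tissue differed more between replicates than the main fibrillar chains did. Col10a1 had 2.87 and 22.0 CPM, Col2a1 12.4 and 54.8 CPM and Col8a2 19.0 and 47.6 CPM, while Col1a1 had 8827 and 8958 CPM and Col6a1 426 and 393 CPM. These chains were chosen after their values were seen. Others differed too: Col12a1 had 1059 and 3563 CPM and Col8a1 272 and 839.9 CPM, and Col15a1, with 46.2 and 21.3 CPM, was higher in replicate 1.

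The ciNSLC libraries differed among themselves in which collagen led. Col11a1 had 135, 152 and 34.0 CPM, Col4a6 12.8, 17.6 and 1.08 CPM, Col18a1 39.4, 41.2 and 92.9 CPM and Col28a1 8.25, 9.30 and 79.8 CPM. Replicate 3 was low for the first pair and high for the second. It carries the code ciN_2_P2 in its description and replicate 2 the code ciN_1_P4, and whether they are separate lines or passages is not said. Itga1, a collagen-binding integrin subunit, had 43.5, 44.3 and 151 CPM in ciNSLCs, against 7.21 in SCR029 and 9.16 in priNPC (3.28 ± 0.56 SE, adjusted p = 0.011), and was likewise highest in replicate 3. Fkbp10, a collagen chaperone, had 37.6, 34.7 and 36.4 CPM in ciNSLCs, against 0.710 in SCR029 and 5.58 in priNPC (3.52 ± 0.62 SE, adjusted p = 0.012), so that some collagen partners differed from the neural controls where no collagen passed the test.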
